A study of Mus musculus with 11 samples.

Results

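The Ifitm genes encode the interferon-induced transmembrane proteins, and 6 of the 49943 genes with a position in the RefSeq gene table are described here: Ifitm1, Ifitm2, Ifitm3, Ifitm5, Ifitm6 and Ifitm10. They were selected on the measured methylation levels of knockout and control GMP cells, for a loss near Ifitm1. Their C positions are those between 5000 bp before and 5000 bp after the span of each gene on chromosome 7 (GRCm38), 159 of the 1961722 C positions listed in any library. Because the choice used knockout and control GMP, the GMP values below are a description with no test, and the test is that of LSK cells.

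Methylation was measured by enhanced reduced representation bisulfite sequencing, in which MspI cuts DNA at CCGG, short fragments are kept, and bisulfite turns unmethylated C into T. Knockout mice were Dnmt3a f/f Mx1-Cre+ and control mice were Dnmt3a f/f Mx1-Cre-, all on C57BL/6, so both carried the floxed gene. Both received 5 injections of poly(I:C), which induces interferon and through it the Mx1 promoter that drives Cre. Every group had therefore been exposed to an inducer of interferon, and no group without it was analysed here. The age was 12 months, which the series text states for the transcriptome samples. LSK cells (Lin- Sca1+ cKit+, the marrow fraction that holds the stem cells) gave 3 knockout libraries (1327, 1333 and 1334) and 3 control libraries (1326, 1330 and 1331). GMP cells (Lin- Sca1- cKit+ CD34+ FcgR+, the granulocyte-macrophage progenitors) gave 2 knockout libraries (178 and 179) and 2 control libraries (346 and 349). GMP library 352 has a title and a genotype field that contradict each other, so its values are given apart. No expression was measured in these files.

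IFITM proteins sit in cell and endosome membranes and hinder the entry of enveloped viruses. Ifitm1, Ifitm2 and Ifitm3 are induced by interferons and are also known to be expressed in stem cells, whereas Ifitm5 is known as an osteoblast gene. Dnmt3a adds methyl groups to unmethylated C, and methylation near a gene often differs between cells that use the gene differently.

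Coverage summed over C positions was 157.4 to 181.1 M per LSK library and 95.4 to 109.7 M per GMP library, and a read over several C positions counts at each. A listed C position had a median of 85 to 103 reads in LSK and 50 to 59 in GMP. In Dnmt3a, 5 C positions (chr12:3903653-3904031) that every control library listed were listed by none of the 3 knockout LSK libraries, while knockout GMP 178 listed 4 and 179 listed 5 of them. Knockout GMP thus kept reads of the segment that knockout LSK lacked, and library 352 listed 0 of the 5. Granule protein genes taken as GMP markers were compared between the controls, with no test. The span of Mpo with 5000 bp on either side was at 46.1% ± 1.06 (SD, n = 2) in control GMP and 88.8% ± 0.630 (n = 3) in control LSK. Ctsg was at 52.1% ± 5.49 in control GMP and 90.4% ± 1.16 in control LSK. Elane was at 43.7% ± 3.61 in control GMP and 48.9% ± 4.41 in control LSK, and Prtn3 at 5.93% ± 0.631 in control GMP and 8.19% ± 0.668 in control LSK. In knockout LSK, 0 of the 5 measured windows of 6 GMP genes passed the threshold (an adjusted p under 0.05 and a difference of at least 10 points). Of the other lists, 0 of 3 erythroid, 0 of 3 lymphoid and 0 of 2 measured stroma genes passed. Of 6 stem cell genes 1 passed, Hlf (17.2% ± 2.09 in knockout and 32.0% ± 2.88 in control LSK, adjusted p = 0.0299). Among all windows 0.307% were lower and 0 higher, so counts of 0 in such short lists say little. An unadjusted p under 0.05, which 9.59% of all windows had, was found at 1 GMP, 0 erythroid, 2 lymphoid, 0 stroma and 2 stem cell genes. Libraries differed in listed chromosome Y positions, with 1226 to 1326 in each assigned GMP library, 1422 in knockout LSK 1327, 1470 in control LSK 1326 and 211 to 229 in the other LSK libraries.

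Ifitm5, Ifitm2, Ifitm1, Ifitm3 and Ifitm6 lie in that order within 67.9 kb, and Ifitm10 begins 1358 kb farther along the chromosome than the Ifitm1 start. MspI sites set where methylation could be read. The RefSeq promoter table (GRCm38.p6; 250 bases before and 50 after each start) holds 1 start for each clustered gene and 3 for Ifitm10. No CCGG occurs in that window of Ifitm1, Ifitm2, Ifitm3, Ifitm5 or Ifitm6, whereas 52.8% of 32851 promoters of that length hold one. No C position was listed in the 250 bases before the starts of these 5 genes, so their proximal promoters were not measured. After the Ifitm5 start, 2 positions at 64 and 79 bp were listed in every assigned library, at 87.8% ± 1.69 in knockout and 93.6% ± 5.72 in control LSK (n = 3 each), and the groups overlapped. The upstream bases of the 3 interferon-induced genes are shown to make this visible, 5′ to 3′ on the strand of the gene, with each CG dinucleotide in capitals (Ifitm1 chr7:140967826-140968075, plus strand; Ifitm2 chr7:140955962-140956211 and Ifitm3 chr7:141010745-141010994, minus strand). Ifitm10 is shown for contrast at a start with 4 CCGG (chr7:142372328-142372577, minus strand), with capitals marking the 20 C positions listed in at least 1 library; a capital G stands for the C on the opposite strand.
Ifitm1: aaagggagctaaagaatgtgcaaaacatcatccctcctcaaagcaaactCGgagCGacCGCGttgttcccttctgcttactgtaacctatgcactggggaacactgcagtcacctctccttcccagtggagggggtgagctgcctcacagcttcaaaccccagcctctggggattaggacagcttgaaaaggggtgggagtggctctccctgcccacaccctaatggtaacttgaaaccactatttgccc
Ifitm2: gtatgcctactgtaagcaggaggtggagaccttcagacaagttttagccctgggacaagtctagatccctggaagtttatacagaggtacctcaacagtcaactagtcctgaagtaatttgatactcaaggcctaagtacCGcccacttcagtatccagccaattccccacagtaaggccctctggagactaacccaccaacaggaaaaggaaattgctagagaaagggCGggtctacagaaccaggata
Ifitm3: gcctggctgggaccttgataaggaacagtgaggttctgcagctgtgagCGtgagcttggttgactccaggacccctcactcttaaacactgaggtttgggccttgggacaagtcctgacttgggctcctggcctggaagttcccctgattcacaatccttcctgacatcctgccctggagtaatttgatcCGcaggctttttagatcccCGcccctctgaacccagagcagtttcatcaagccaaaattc
Ifitm10: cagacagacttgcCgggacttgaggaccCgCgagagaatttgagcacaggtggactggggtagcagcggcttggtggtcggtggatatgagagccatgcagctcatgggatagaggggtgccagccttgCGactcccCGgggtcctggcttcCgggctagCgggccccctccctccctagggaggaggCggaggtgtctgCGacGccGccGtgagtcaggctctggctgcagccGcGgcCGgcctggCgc
The core of the element that interferon-activated factors bind, GAAA followed after any 2 bases by a second GAAA, was searched on both strands; matches may overlap. It occurred once in the window of Ifitm2, beginning 46 bases before the start, and at 2 places in that of Ifitm3, the first beginning at base 3 after the start. The window of Ifitm1 did not hold these letters, and 3.44% of the 32851 promoters did. These matches are letters only and no binding was measured.

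In LSK cells the knockout lost methylation at 2 places on either side of Ifitm1, a gene whose protein acts mainly at the cell surface in human cells. Of the 12 tiles of 1000 bp with at least 3 C positions around the Ifitm genes, 2 were lower in knockout LSK at an adjusted p under 0.05 and a difference of at least 20 points, and 0 were higher. Among all 107074 tiles 0.871% were lower and 0.0028% were higher by the same rule, and 1.11% of those at 40% or more in control LSK were lower. The median difference was -3.98 points over the 12 tiles, against -0.373 over all tiles. All adjusted p-values of LSK are from a quasi-binomial model of methylated and unmethylated reads with Benjamini-Hochberg adjustment over all features of a kind.

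**Figure D1:**
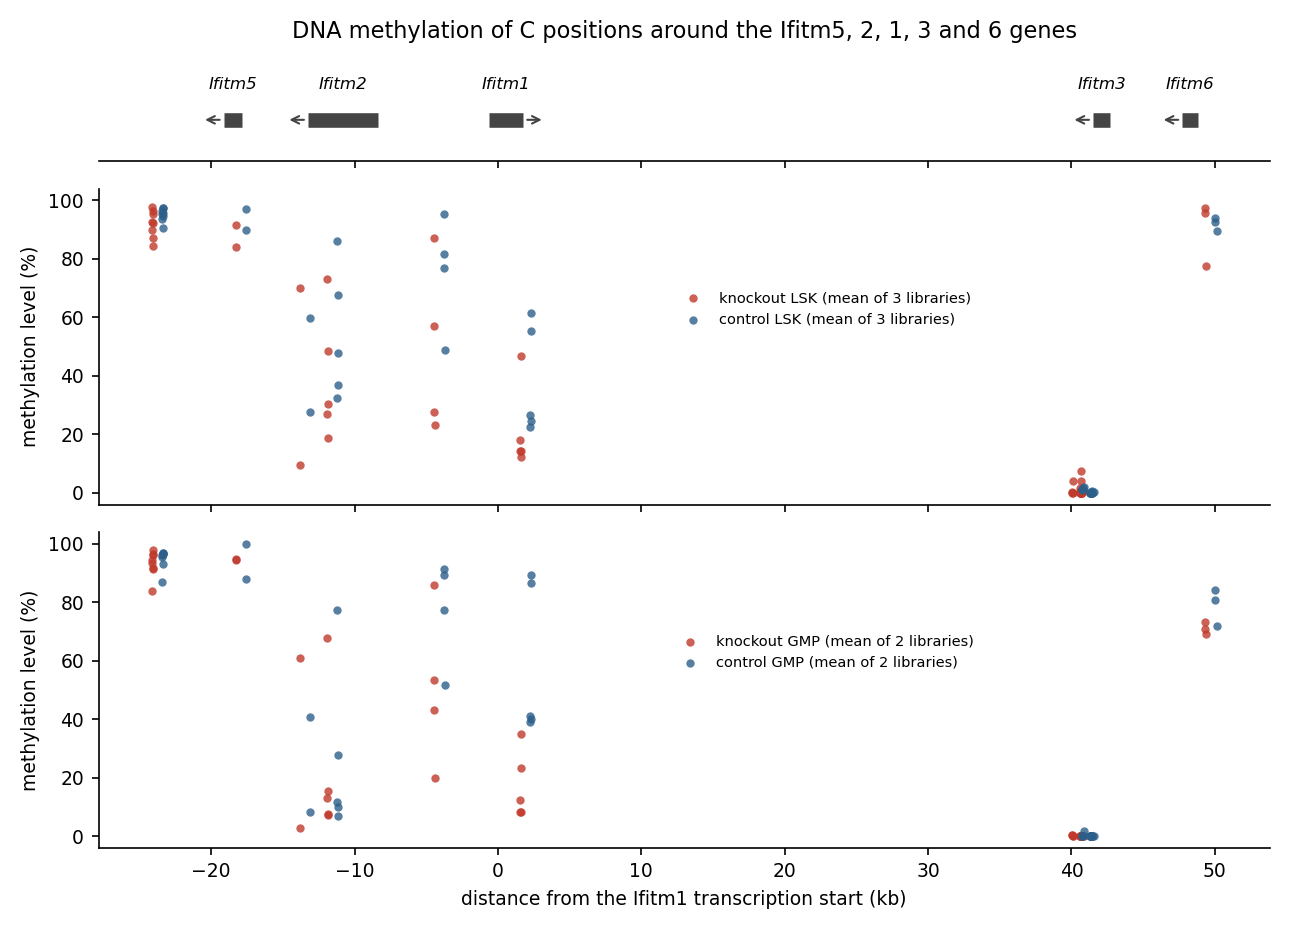
Mean methylation level (%) of each C position listed in all 10 assigned libraries, against its distance in kb from the Ifitm1 start, in LSK (3 libraries per group) and GMP (2 per group). Red points are knockout and are drawn slightly left of their place, blue points are control and are drawn slightly right; bars at the top are gene spans with arrows in the direction of transcription. Red lies below blue at the columns of points on either side of Ifitm1, and both lie low beside Ifitm3.

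The tile past the end of Ifitm1 (chr7:140970001-140971000, 3 C positions) is the one with the largest loss in GMP. Its level was 23.7%, 24.0% and 25.7% in knockout LSK, against 45.5%, 50.3% and 45.7% in control LSK. Every knockout library lay far below every control library, and the knockout libraries were within a few points of one another. The means were 24.5% ± 1.06 in knockout and 47.2% ± 2.73 in control LSK (SD, n = 3 each), and the pooled level fell by 23.1 points (adjusted p = 0.00461). With tiles shifted by 500 bp, 5 C positions of the place came into 1 tile and the difference was -17.9 points (adjusted p = 0.00804), under the 20 points required.

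The tile between Ifitm2 and Ifitm1 (chr7:140963001-140964000, 3 C positions) held the other called loss. Its level was 52.7%, 62.1% and 58.5% in knockout LSK, against 83.6%, 84.0% and 86.3% in control LSK. The groups did not overlap, and the spread was wider among the knockout libraries. The means were 57.7% ± 4.74 in knockout and 84.6% ± 1.42 in control LSK (SD, n = 3 each), with a pooled difference of -27.5 points (adjusted p = 0.00244). This tile falls within 5000 bp of both genes, so it counts for both.

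Another place, before the Ifitm2 start (chr7:140956001-140957000, 5 C positions), did not pass the test in LSK. Ifitm2, whose protein is found mostly in endosomes in human cells, had levels of 43.5%, 41.7% and 31.0% there in knockout LSK, against 56.9%, 52.2% and 51.8% in control LSK. All 3 knockout libraries were below all 3 control libraries, with a pooled difference of -15.2 points (adjusted p = 0.0808). Every knockout library was below every control library in 6 of the 12 tiles, against 15% of all tiles, and 6 had an unadjusted p under 0.05, against 13.1%.

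**Figure D2:**
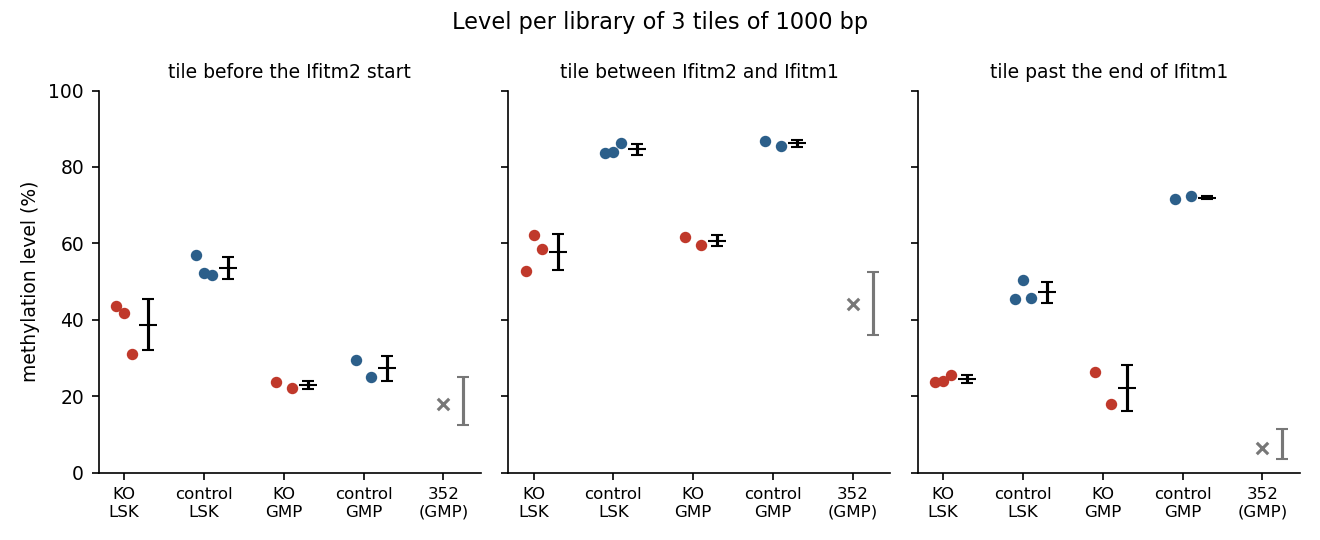
Methylation level (%) of 3 tiles of 1000 bp, 1 point per library, with knockout LSK, control LSK, knockout GMP, control GMP and library 352 from left to right; black bars are the mean and SD of a group, and the grey bar is a 95% Wilson interval at the mean coverage per C position. Past the end of Ifitm1, knockout LSK sit between 23.7% and 25.7%, below control LSK at 45.5% to 50.3%, and knockout GMP at 18.0% and 26.4%, below control GMP at 71.7% and 72.3%.

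The single C positions showed where in these tiles the difference lay. Past the end of Ifitm1, 5 positions from 117 to 230 bp beyond its span were listed in every library. The position at 140970015 (minus strand) was at 18.3%, 2.80% and 22.0% in knockout LSK, against 54.2%, 55.4% and 56.4% in control LSK. The control libraries were nearly identical there, and every knockout library was at less than the lowest of them. Its neighbour 5 bases away, 140970010 on the same strand, had 12.4% ± 3.38 in knockout and 24.7% ± 2.89 in control LSK. The first position, 140969944, had 18.1% ± 9.59 in knockout and 22.4% ± 9.22 in control LSK, and the libraries overlapped. The remaining pair, 140969983 and 140970057, differed by -12.5 and -14.7 points in LSK, the groups overlapping at 140970057.

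Between Ifitm2 and Ifitm1, 4 positions lay 4134 to 4038 bp before the Ifitm1 start. The one at 140963986 had 23.6%, 28.9% and 30.8% in knockout LSK, against 74.5%, 77.6% and 78.4% in control LSK, the widest gap at any C position of these 2 places in LSK. At 140963942 the level was 87.3% ± 2.80 in knockout and 95.3% ± 2.24 in control LSK. Knockout libraries were lower than all control libraries at each of the 4 positions. With the variance prior of all positions none of the 114 Ifitm positions listed in all LSK libraries passed the test, as none of the 1403302 positions did. With the prior fitted on positions of intermediate level, 2 of the 114 were lower, 140963986 (adjusted p = 0.00164) and 140970015 (adjusted p = 0.0170), against 0.141% of all positions, and 0 were higher, against 0.00207%. In 18 of the 114 every knockout LSK library was below every control library, against 5.16% of all positions, and 15 had an unadjusted p under 0.05, against 5.09%. Many of the 114 lie close together, some only 1 base apart, so these counts are not of separate positions.

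**Figure D3:**
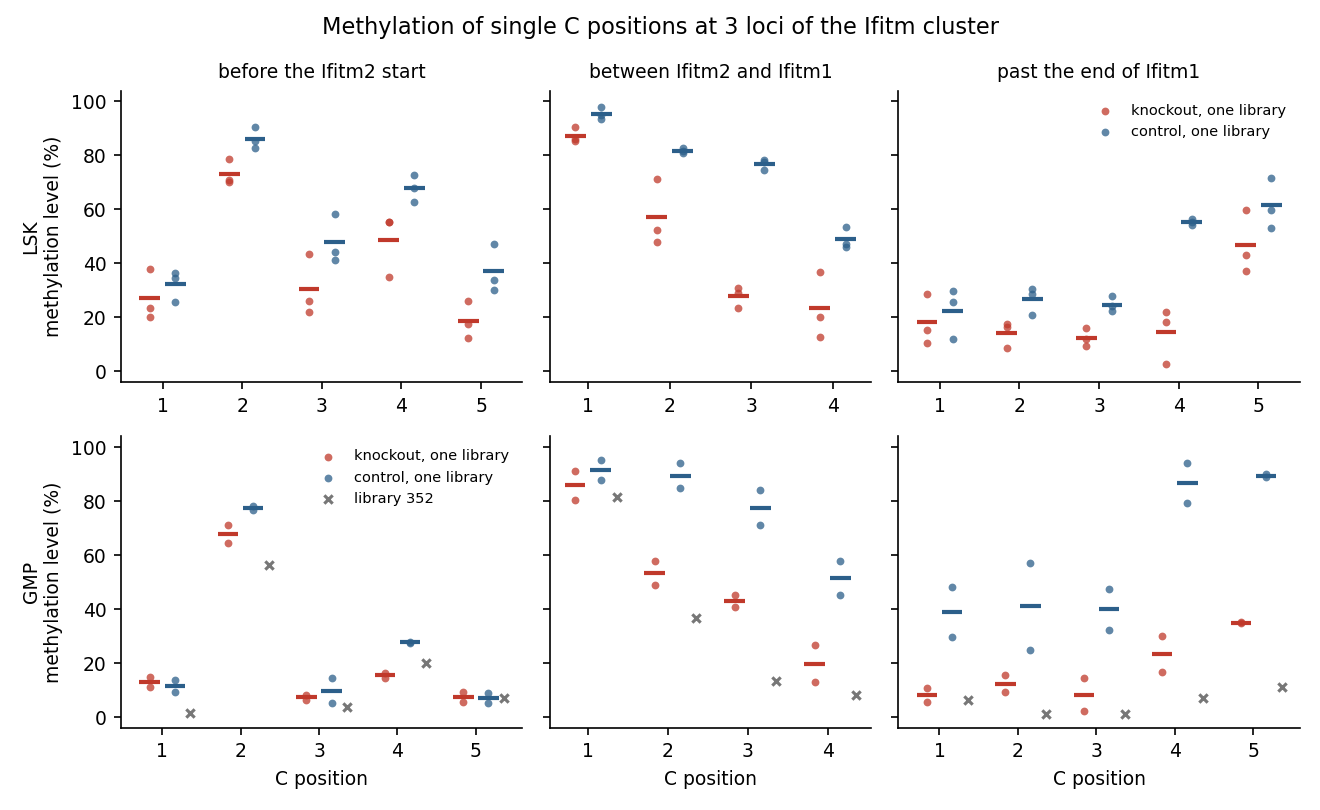
Methylation level (%) of single C positions at 3 places, numbered along the chromosome, in LSK (top) and GMP (bottom). Each dot is 1 library, knockout (red) left of control (blue), lines are group means, and crosses are library 352. Past the end of Ifitm1, position 4 is at 14.4% in knockout and 55.3% in control LSK, and at 23.4% in knockout and 86.6% in control GMP.

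Over whole gene windows (the span and 5000 bp on either side, at least 5 C positions) only Ifitm1 passed the test in LSK. None of its 9 C positions lies in the span. They are the 4 between Ifitm2 and Ifitm1 and the 5 past the end of Ifitm1, so the window is not separate from those places. Their level was 33.6%, 35.9% and 33.3% in knockout LSK, against 59.2%, 60.3% and 54.9% in control LSK. The means were 34.2% ± 1.43 in knockout and 58.2% ± 2.87 in control LSK (SD, n = 3 each), and the pooled level fell by 24.5 points (adjusted p = 0.0214). The difference stayed between -25.7 and -23.2 points when any 1 library was left out, but the call was kept only without knockout 1327. Without 1326, 1330, 1331, 1333 and 1334 the adjusted p was 0.133, 0.120, 0.111, 0.0639 and 0.186. Among 28635 windows 0.307% were lower and 0 higher.

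Ifitm2 followed, and shares 4 of its 13 C positions with the Ifitm1 window. Its level was 44.0%, 53.0% and 38.6% in knockout LSK, against 65.0%, 65.2% and 61.5% in control LSK. The groups did not overlap, and the difference of -19.8 points had an adjusted p of 0.0749. Ifitm5 was at 85.8% ± 1.45 in knockout and 90.3% ± 1.13 in control LSK, a pooled difference of -4.30 points (adjusted p = 0.386). The 3 windows with no overlap, those of Ifitm1, Ifitm2 and Ifitm5, are not separate, since Ifitm2 also shares 4 of its positions with Ifitm5, and they compare with 13.2% of all windows.

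Ifitm3, the member best known for blocking influenza virus, was almost unmethylated where it could be read. Its 24 C positions lie downstream of the gene and none lies in its span. The window was at 0.997% ± 1.39 in knockout and 0.657% ± 0.156 in control LSK (adjusted p = 0.939), and at 0.0591% ± 0.0835 in knockout and 0.157% ± 0.103 in control GMP (n = 2 each). Levels this close to 0 left no room for a loss. The highest value was 2.60% in knockout LSK 1333, a library that alone listed 118988 positions, against 6313 to 35250 in each of the others.

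Ifitm6 had 3 C positions in all libraries, 836 to 951 bp before its start, too few for the window test. They were at 91.1%, 84.1% and 91.3% in knockout LSK, against 93.7%, 87.8% and 93.8% in control LSK, and the groups overlapped (adjusted p = 0.889). In GMP the same positions were at 78.4% and 64.4% in knockout, against 77.9% and 83.8% in control, again overlapping.

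Ifitm10, a distant member, was the only one with C positions listed in the 250 bases before a start. The 38 C positions from 237 bp before to 403 bp after the nearest of its starts were at 3.19%, 1.53% and 3.66% in knockout LSK, against 5.43%, 6.45% and 5.90% in control LSK. The groups did not overlap, and the tile with 34 of them had an adjusted p of 0.0596. The highest levels in control LSK were those of the 3 outermost upstream positions, the first 3 capitals of the Ifitm10 sequence above. Position 142372564, 237 bp before the start shown, had 26.6% ± 1.86 in knockout and 49.0% ± 2.44 in control LSK. In GMP the same position had 45.8% in knockout and 53.1% in control (n = 2 each). Every knockout LSK library was below every control LSK library at all 3 positions, against 5.16% of all positions. The 3 were picked for their control level and lie 2 and 15 bases apart, so they are not separate. Inside the gene, the tile chr7:142359001-142360000 had 73.5%, 69.9% and 72.7% in knockout LSK, against 84.4%, 91.7% and 84.0% in control LSK, a difference of -13.5 points (adjusted p = 0.0943). Over all 61 positions Ifitm10 was at 24.7% ± 6.59 in knockout and 29.1% ± 0.871 in control LSK (adjusted p = 0.742), the knockout spread resting on 17.4% in library 1333. This level pools reads, so it also depends on how they are spread over the positions. The 38 positions at the start, low in all LSK libraries, held 5359 of 6804 in 1333. They held 4041 of 5955 in 1327 and 3827 of 5366 in 1334, and the part of this in the spread was not tested.

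**Figure D4:**
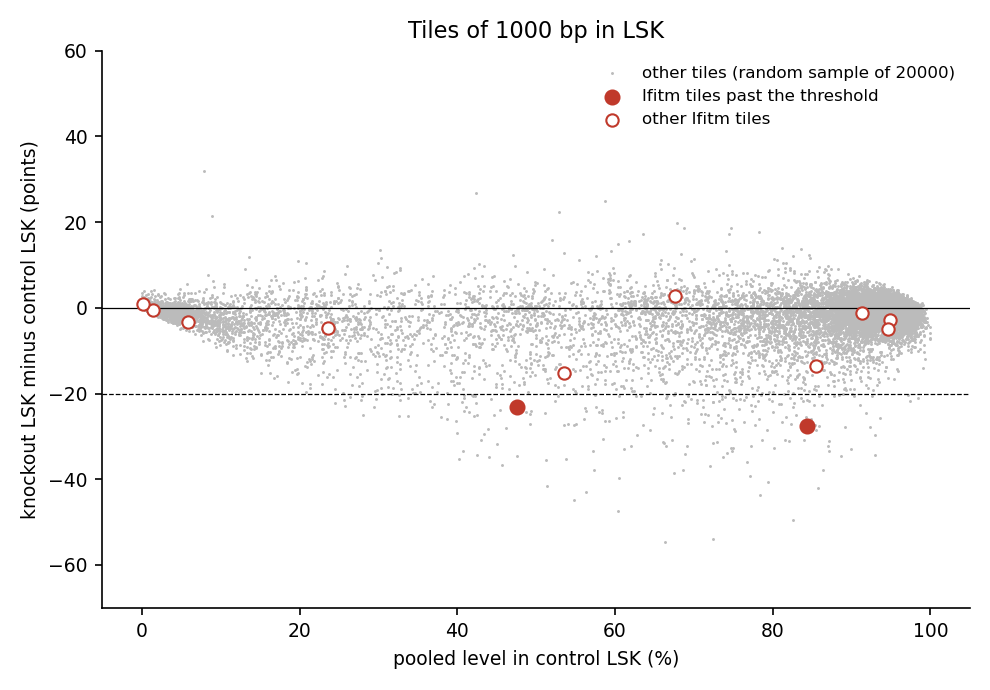
Difference in pooled level (knockout LSK minus control LSK, percentage points) against the pooled level in control LSK (%) for tiles of 1000 bp; red circles are the 12 Ifitm tiles, filled where they pass the threshold, and grey points are a random sample of 20000 other tiles. The dashed line marks -20 points; the 2 filled circles lie at -23.1 and -27.5, and tiles near 0% or 100% in control vary little.

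In GMP, where the genes were chosen, the tile past the end of Ifitm1 was at 26.4% and 18.0% in knockout, against 71.7% and 72.3% in control. The pooled difference was -49.5 points, and 6 of 107150 tiles, this one included, lost at least that much. The tile between Ifitm2 and Ifitm1 was at 61.8% and 59.7% in knockout GMP, against 86.8% and 85.5% in control GMP, a difference of -25.4 points. The next in size among the 13 Ifitm tiles was -13.4 points in Ifitm10, where the coverage summed over the 3 C positions was as low as 33 in a library. In 5 of the 13 tiles both knockout libraries were below both control libraries, against 25.9% of all tiles, and 2 of them lost at least 20 points, against 0.72%. The Ifitm1 window was at 34.3% and 34.2% in knockout GMP, against 63.0% and 70.2% in control GMP, and that of Ifitm2 at 37.3% and 40.6% in knockout GMP, against 49.2% and 53.1% in control GMP. These 2 of the 5 windows did not overlap, against 25.1% of all windows, and both lost at least 10 points, against 1.48%. Of 109 C positions listed in the 4 libraries, 19 were lower in both knockout than in both control libraries, against 9.79% of all positions. The choice of the genes used these values, and nothing is read from them.

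The cell types differed among the controls at 2 of the 3 places. Past the end of Ifitm1 (5 positions) control GMP were at 54.0% and 61.3%, against 39.9%, 41.2% and 37.0% in control LSK, so control GMP were higher by 18.3 points. In the knockout the same positions were at 20.6% and 13.4% in GMP, against 23.4%, 19.1% and 21.4% in LSK, a difference of -4.30 points with overlapping libraries. Before the Ifitm2 start the order was turned round, with 27.3% ± 3.18 (n = 2) in control GMP and 53.7% ± 2.84 (n = 3) in control LSK. Between the genes, control GMP averaged 78.1% ± 2.99 (n = 2) and control LSK 77.1% ± 1.56 (n = 3). Control GMP entered the choice of the genes, so none of this was tested, nor was the difference between the knockout effects of the cell types. The GMP and LSK libraries also differ in depth and in listed Y positions. Knockout GMP libraries 178 and 179 listed 4 and 5 of the 5 Dnmt3a positions, of which knockout LSK libraries listed 0. The part of all these in the differences was not tested.

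Library 352 had the lowest level of all GMP libraries at the 3 places. It was at 6.48% (95% Wilson interval 3.56% to 11.5%) past the end of Ifitm1, where the knockout GMP libraries had 18.0% and 26.4% and the control GMP libraries 71.7% and 72.3%. In the tile between the genes it was at 44.1% (35.95% to 52.5%), and before Ifitm2 at 18.0% (12.5% to 25.1%), an interval that takes in both knockout GMP libraries and control GMP 349. These intervals take the mean coverage per C position, 154, 135 and 142 reads, as the number of reads, since a read over several C positions counts at each, and they cover counting error only.

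Other genes of the interferon response did not pass the test in LSK. Of 45 listed genes, from sensors of viral nucleic acid to receptors and effectors, 37 had a measured window. Of these, 0 were lower and 0 higher at an adjusted p under 0.05 and 10 points, against 0.307% and 0 of all windows. With so low a share, a count of 0 does not set the list apart from other genes. At an unadjusted p under 0.05 there were 8, against 9.59% of all windows, and the median difference was -1.05 points, against -0.384 over all windows. The windows of Tap1 and Psmb8, both among the 8, overlap, so the 8 are not all separate. No tile in their windows was called either, against 0.871% of all tiles lower and 0.0028% higher. The largest difference was at Sting1, an adaptor of DNA sensing, with 40.8% ± 4.47 in knockout and 49.2% ± 2.71 in control LSK (adjusted p = 0.343). Ifngr1, a subunit of the interferon gamma receptor, had 38.5% ± 3.53 in knockout and 32.2% ± 5.42 in control LSK (adjusted p = 0.643). Psmb9, an immunoproteasome subunit, had 41.9% ± 4.43 in knockout and 47.4% ± 6.08 in control LSK (adjusted p = 0.718). Mx1, Mx2, Ifit1, Ifit3, Rsad2, Trim30a, Ifi27 and Zbp1 had too few C positions to be tested.

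The neighbouring genes were measured in the same way in LSK. Of 15 genes within 50000 bp, 12 were measured and 0 were called, against 0.307% of all windows lower and 0 higher. Of the 12, 3 (B130016D09Rik, Gm10013 and Gm45889) rest on the same 16 C positions. Some windows also share C positions with a member, that of Pgghg with Ifitm5, of Ctsd with Ifitm10 and of Gm33504 with Ifitm3. Those neighbours are not separate from the members. An unadjusted p under 0.05, which 9.59% of all windows had, was found at 1, Pgghg beside Ifitm5 (77.7% ± 1.96 in knockout and 83.9% ± 1.56 in control LSK, adjusted p = 0.234). Gm33504 and Gm7514, between Ifitm1 and Ifitm3, differed by -0.211 and -3.91 points. Their windows overlap, so these 2 are not separate from each other. That of Gm33504, at 13.3% in control LSK, also holds the almost unmethylated positions beside Ifitm3. From 140 to 145 Mb of the chromosome, 6065 positions were common to the LSK and 5990 to the assigned GMP libraries. Beside these, 0 positions in LSK and 9 in GMP were read 20 times or more by all libraries of one genotype while no library of the other listed them.

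**Figure D5:**
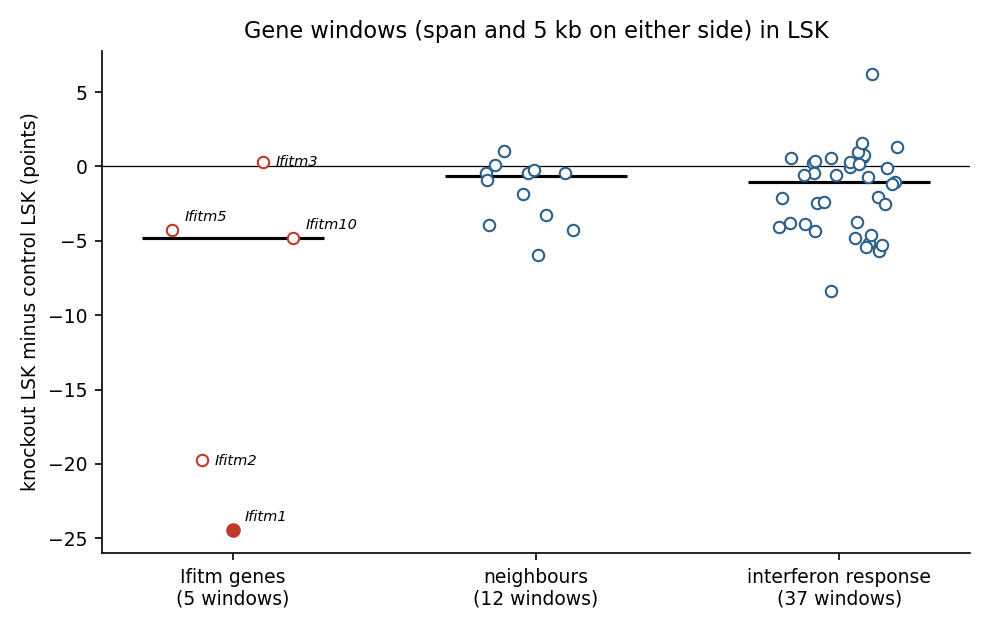
Difference in pooled level (knockout LSK minus control LSK, percentage points) of gene windows for 5 Ifitm genes, 12 neighbours and 37 genes of the interferon response, 1 circle per gene, with the median of each list as a line. The filled circle, Ifitm1 at -24.5 points, is the only one past the threshold; Ifitm2 is at -19.8, and the farthest gene of the other lists, Sting1, at -8.38.

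The tiles whose levels were most like those of the tile past the end of Ifitm1 over the 10 assigned libraries, among 100137 tiles, lay in Hlf, Gm13391, Itga2b, Phldb1 and Pitpnm2. Their mean absolute differences from it were 5.88, 6.04, 6.10, 6.28 and 6.95 points. The Hlf tile (chr11:90381001-90382000), in a gene for a transcription factor of stem cells, was at 19.0%, 29.8% and 26.2% in knockout LSK, against 39.9%, 49.1% and 44.8% in control LSK, and averaged 30.5% in knockout and 63.1% in control GMP. The likeness takes in the difference between knockout and control, and describes these libraries only.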

How the data were processed

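Per the file headers, a deposited table gives for each C position its coverage (the count of reads) and 2 percent columns, for reads showing C and reads showing T. Only positions with a coverage of at least 10 are listed, so an unlisted position is not a level of 0. Bismark, mm10 and GRCm38 are named in the submitters' processing notes; versions and settings are not given in the sources used here. All 227145 positions of one library that fell in RefSeq promoter sequences of GRCm38.p6 were the C of a CG.

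The number of methylated reads at a position was taken as the product of its coverage and the deposited percent, which was whole everywhere to within the rounding of its 3 decimals. Reads were summed per C position, per 1000-bp tile (at least 3 C positions) and per gene window (at least 5), over positions listed in all libraries compared. Knockout and control LSK were compared by a quasi-binomial model with an F test, and the dispersion, never below 1, was moderated along coverage with squeezeVar of limma 3.58.1 under R 4.3.3. A feature was called at an adjusted p under 0.05 with at least 25 points for positions, 20 for tiles and 10 for windows. Strand is that of the C, and both strands of a CG are separate positions. Starts and promoter sequences are RefSeq's, matched by gene ID for 6 of 6 genes; the spans of Ifitm1 and Ifitm2 reach 647 and 3725 bp upstream of the starts used. Library names are title numbers. Nothing in the labels ties each library to an animal of its own, so p-values measure only the spread between these libraries.

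The members, the gene lists and the tests were chosen with earlier results of these data known. All 6 genes are named, with the tile of largest loss in GMP, the tiles called in LSK, the 3 interferon response genes of largest difference if none was called, and the 5 genes with the tile most like it.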

Additional observations from a re-analysis of the deposited data

Results flagged for a closer look

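Library 352, which entered no comparison because its labels contradict each other, was lower than both control GMP libraries in the 2 tiles where knockout GMP had lost at least 20 points. It was at 6.48% past the end of Ifitm1 and at 44.1% between Ifitm2 and Ifitm1, where the control GMP libraries had at least 71.7% and 85.5%. Its group was not inferred from these values. The groups hold at most 3 libraries, too few to look for a library far from the others of its group. At none of the 18 places with C positions in all assigned libraries did LSK and GMP move in opposite directions in every library, a difference that was not tested.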

How the results depend on the processing

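No paired analysis was possible because no library number is shared between groups. With the dispersion of each feature alone, 0 tiles and 0 windows of all genes passed, and the losses at the 2 Ifitm tiles (-27.5 and -23.1 points, adjusted p = 0.214 for both) and the Ifitm1 window (-24.5 points, adjusted p = 0.294) were no longer called; the cause was not tested. Of all tiles 936 were called, 451 by limma on logit levels and 533 with at least 5 C positions, where neither Ifitm tile, with 3 each, was tested; of all windows 88 were called, 30 by limma on logit levels, 57 with at least 10 C positions, where the Ifitm1 window, with 9, was not tested, and 549 by Fisher's exact test. Of all C positions 0 were called (71469 at an unadjusted p under 0.05), 2007 with the intermediate-level prior and 11993 by Fisher's exact test, which ignores the spread between libraries. Tiles shifted by 500 bp gave -17.9 points past the end of Ifitm1 in LSK and -40.6 points in GMP, where the difference of group means was -49.8. Leaving out 1 library gave 384 to 1287 tiles, 0 to 146 windows and 0 positions; both Ifitm tiles stayed called, at -29.2 to -24.4 points between the genes and -24.0 to -21.1 past the end of Ifitm1, while the Ifitm1 window ranged from -25.7 to -23.2 and lost its call in 5 of 6. The GMP difference ranged from -54.0 to -45.6. No result of the 6 genes that was called in LSK changed direction. The tiles near Ifitm1 and Ifitm2 hold 3 to 5 C positions each, and the promoters of the clustered genes were not measured.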
